A study of Homo sapiens and Mus musculus with 47 samples.

Results

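Immediate early genes are the first genes that a cell transcribes after a growth factor, serum or stress signal, and MAPK-induced genes are those whose transcription follows the activity of the ERK kinase cascade. The 37 genes described here were chosen by their symbols from these classes: 4 EGR zinc finger transcription factors, 7 FOS and JUN family subunits of the AP-1 transcription factor, 3 IER genes, 5 dual specificity phosphatases, 4 KLF factors, 3 NR4A nuclear receptors, SRF with the matricellular genes CYR61 and CTGF, ARC, the regulators ZFP36, PHLDA1 and MCL1, and 4 SPRY and SPRED inhibitors. All 37 were found among the 57820 genes of the human tables. The mouse tables, with 55401 genes, held 35 under the listed symbols, and Ccn1 and Ccn2 there stand for CYR61 and CTGF under newer names.

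Growth factor receptors pass their signal through RAS and a chain of kinases to ERK. ERK then phosphorylates factors of the ETS family that sit with SRF at promoters such as those of EGR1 and FOS, which are transcribed within minutes and without new protein synthesis. The EGR and AP-1 proteins made in this way switch on later genes, while the DUSP phosphatases, which remove phosphate from MAP kinases, and the SPRY and SPRED proteins, which act upstream of ERK, damp the cascade. The transcripts are short-lived, partly because ZFP36 binds AU-rich elements and speeds their decay.

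Counts per gene came from 35 libraries of established cell lines. In Chrom-seq, a chromatin reader domain carrying peptide tags brings the peroxidase APEX2 to a histone mark, where APEX2 biotinylates RNA close by so that it can be pulled down and sequenced. Chrom-seq libraries with the TAF3 reader of H3K4me3, a mark of active promoters, and with a reader-free control came from HCT116 human colon carcinoma cells, NIH3T3 mouse fibroblasts and Neuro-2a mouse neuroblastoma cells, with 3 libraries in each group. HEK293T cells, a line from human embryonic kidney, gave RNA-seq libraries of a CBX7 group, named for the reader of the Polycomb mark H3K27me3, and of a control group, 3 each. Further HEK293T RNA-seq was made after antisense oligonucleotides (ASOs) against the long noncoding RNAs SETD5-AS1 (3 libraries), LINC00641 (2 libraries) or LINC00662 (3 libraries) and after a control ASO, named NC (3 libraries). The labels give the same handling for every sample, namely 48 h of expression of the fusion constructs, 500 µM biotin-aniline for 30 min and 1 mM H2O2 for 1 min. The study's text, however, describes the HEK293T cells set beside the CBX7 transfectants as untreated, so the RNA-seq control may have had neither transfection nor labelling. Its methods describe ASO transfection of HEK293T cells for 48 h before ChIP-seq or imaging, and mention no fusion construct or labelling there. The ASO groups may therefore have had neither the constructs nor the labelling.

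Library totals ranged from 10012172 to 17558305 counts in Chrom-seq and from 8258859 to 15330874 in RNA-seq. Of 6 markers looked up for each line, all 6 were at 1 CPM or more in every library of HEK293T, NIH3T3 and Neuro-2a cells, and 5 of 6 in HCT116, where VIL1 stayed under 1 CPM while EPCAM, CDH1, KRT8, KRT18 and KRT19 were high. Levels are given as CPM, a gene's counts relative to the total of its library after scaling with TMM factors. They are compared between libraries and not between genes, since the tables give gene spans and not transcript lengths. A gene was called when its adjusted p from edgeR's quasi-likelihood test with Benjamini-Hochberg adjustment was under 0.05 and its log2 fold change was at least 0.75 in size. In bulk RNA, fewer expressing cells and less RNA per cell cannot be told apart.

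Promoter sequences were available from RefSeq (GRCh38.p14) for 27 of the 37 genes, each covering 250 bases before and 50 bases after the start site; EGR3, FOSL1, IER3, DUSP4, DUSP5, KLF10, NR4A2, CYR61, ARC and MCL1 had no entry. The promoters of EGR1, JUN and DUSP1 are shown because these genes did not move alike in the ASO experiments. Capitals mark the CArG box, the SRF binding sequence, and the EGR sequence GCGNGGGCG in EGR1, and the sequence TGACNTCA in JUN and DUSP1, which covers both the cAMP response element TGACGTCA and the AP-1 variant of the JUN promoter. The windows lie at chr5:138465229-138465528 on the plus strand for EGR1, at chr1:58783998-58784297 on the minus strand for JUN and at chr5:172771146-172771445 on the minus strand for DUSP1. The counts were made on another build, hg19, and no count coordinate was set against these windows.
EGR1: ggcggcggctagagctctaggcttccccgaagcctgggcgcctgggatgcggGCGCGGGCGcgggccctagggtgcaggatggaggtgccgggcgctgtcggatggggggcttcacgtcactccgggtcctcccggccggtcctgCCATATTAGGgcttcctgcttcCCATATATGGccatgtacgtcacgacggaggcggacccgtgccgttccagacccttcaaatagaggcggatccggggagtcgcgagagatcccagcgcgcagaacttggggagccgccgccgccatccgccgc
JUN: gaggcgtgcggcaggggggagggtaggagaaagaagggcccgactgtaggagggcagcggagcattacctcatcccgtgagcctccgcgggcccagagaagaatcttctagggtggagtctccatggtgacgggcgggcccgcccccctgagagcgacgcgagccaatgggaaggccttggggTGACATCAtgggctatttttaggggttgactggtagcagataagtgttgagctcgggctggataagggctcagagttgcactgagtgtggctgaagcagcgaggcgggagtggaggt
DUSP1: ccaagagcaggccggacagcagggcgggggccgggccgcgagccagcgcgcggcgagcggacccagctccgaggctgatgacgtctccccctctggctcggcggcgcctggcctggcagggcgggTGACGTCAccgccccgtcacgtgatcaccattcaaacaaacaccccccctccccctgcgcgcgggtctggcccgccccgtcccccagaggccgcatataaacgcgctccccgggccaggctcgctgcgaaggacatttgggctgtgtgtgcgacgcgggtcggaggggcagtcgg

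The EGR1 window held 2 CArG boxes, which began 105 and 83 bases before the start site. A CArG box on either strand was found in 2 of the 27 windows (7.41%), those of EGR1 and SRF, and in 1.29% of 35116 human promoter windows of the same length. TGACNTCA, which does not contain the shorter AP-1 motif TGANTCA, was in 5 of the 27 (18.5%), namely JUN, JUND, DUSP1, KLF6 and ZFP36, against 7.72% of all windows. The EGR motif was in 8 of the 27 (29.6%) against 9.43%, and TGANTCA in 1 of the 27 (3.70%), FOSL2, against 7.71%. These are matches of letters in short windows and no binding was measured.

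The CBX7 comparison sets the transcriptome of HEK293T cells transfected with the reader beside that of the control cells. Transfection, biotin-aniline and H2O2 may differ between these groups along with the reader, and their effects cannot be told apart. CBX7 was at 44.1, 39.5 and 41.7 CPM in the libraries labelled CBX7 and at 18.5, 14.8 and 16.2 CPM in the controls, a log2 fold change of 1.34 with a standard error of 0.106 (edgeR adjusted p = 1.15e-06). These are counts of the human CBX7 gene, whereas the study's reader is the chromodomain of mouse CBX7. Reads from the construct and from the cells' own gene cannot be told apart. EGR1 (ENSG00000120738.7, hg19 chromosome 5, 137801179 to 137805004, plus strand) was at 76.2, 63.6 and 68.9 CPM with CBX7 and at 2.41, 6.62 and 8.34 CPM in the controls. Its mean was 69.6 ± 6.35 CPM against 5.79 ± 3.05 CPM (SD, n = 3 each), which is 3.54 on the log2 scale. That rise was known when the genes were chosen, so it is given as a description and without a test.

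Of the other 34 tested genes, 9 rose with CBX7 (26.5%) and none fell, while 7.66% of all 18204 tested genes were called, 4.17% rising and 3.48% falling. Their median log2 fold change was 0.22 against -0.01 over all tested genes. FOS (ENSG00000170345.5, hg19 chromosome 14, 75745477 to 75748933), the founding AP-1 subunit, was at 32.2, 29.0 and 33.5 CPM with CBX7 and at 5.31, 5.20 and 4.98 CPM in the controls. The 3 CBX7 libraries all lay far above the tight control values, with a log2 fold change of 2.61 and a standard error of 0.125 (edgeR adjusted p = 4.58e-09). FOSB, its close relative (hg19 chromosome 19, 45971253 to 45978437), was at 8.99, 7.31 and 7.73 CPM against 1.83, 2.63 and 3.55 CPM, a log2 fold change of 1.55 with a standard error of 0.226 (edgeR adjusted p = 0.000124). Again the groups did not overlap.

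**Figure D1:**
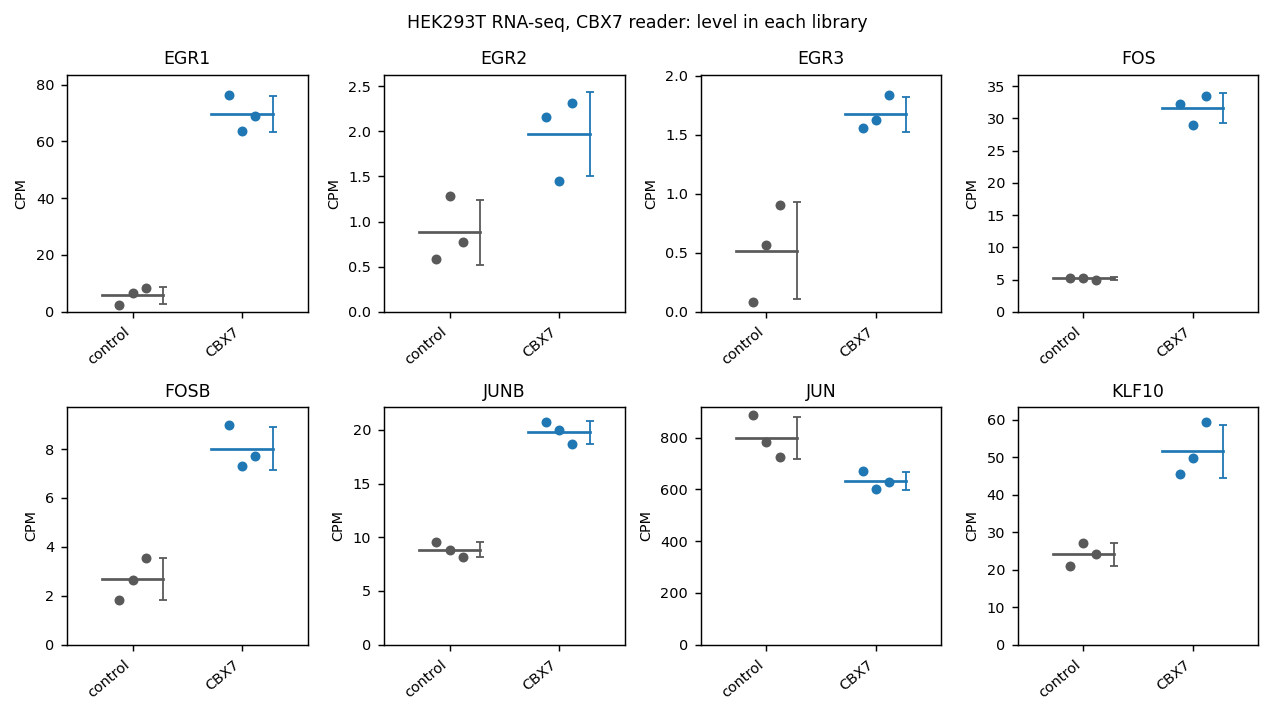
Level in CPM (vertical axis, from 0) of 8 genes in each HEK293T RNA-seq library of the control and the CBX7 group; points are libraries, horizontal lines the mean and vertical bars the SD of 3 libraries. EGR1, FOS and FOSB sit higher in every CBX7 library than in any control library, whereas JUN sits lower, at 601 to 672 CPM against 727 to 889 CPM.

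Besides EGR1, whose rise was known beforehand, EGR2 and EGR3 were called, as were 3 of the 7 AP-1 subunits. EGR2 and EGR3, which share the zinc fingers of EGR1, were low throughout, at 1.44 to 2.32 and 1.56 to 1.84 CPM with CBX7 against 0.581 to 1.28 and 0.0830 to 0.905 CPM, and had log2 fold changes of 1.14 and 1.61. JUNB, a partner of the FOS proteins, rose by 1.16, KLF10, a TGF-beta-inducible repressor, by 1.10, and CTGF, a secreted matricellular protein, by 0.89. IER2, a nuclear early response protein, and ZFP36 both rose by 0.76. Leaving EGR1 aside, 9 genes were called. Without CBX7 replicate 1, EGR2, EGR3, IER2 and ZFP36 of these were not called. Their log2 fold changes were between 0.52 and 1.65 wherever their call was lost. EGR2 was also lost without CBX7 replicate 3, control replicate 1 or control replicate 3, EGR3 without CBX7 replicate 2 or 3 or control replicate 1, IER2 without CBX7 replicate 3 or control replicate 2, and ZFP36 without CBX7 replicate 3 or control replicate 1. EGR2 was not called by DESeq2 either, nor IER2 and ZFP36 without the filter on low counts.

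The other end of the list moved less. JUN, the chief FOS partner, was at 672, 601 and 628 CPM with CBX7 and at 889, 782 and 727 CPM in the controls, without overlap, but its log2 fold change of -0.33 (SE 0.0831, edgeR adjusted p = 0.00656) was under the fold threshold. None of the 4 tested phosphatases, the 3 NR4A receptors or the 4 SPRY and SPRED genes was called. DUSP6, a cytoplasmic phosphatase of ERK, was at 1.80, 1.08 and 2.03 CPM against 0.747, 2.21 and 1.10 CPM (log2 fold change 0.25, SE 0.417, edgeR adjusted p = 0.696). SPRY4 was near the detection limit, at 0.580 to 0.839 CPM against 0 to 0.388 CPM (log2 fold change 1.67, SE 0.720, edgeR adjusted p = 0.0948).

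Genes of the cascade itself were compared from a list of 26, from the receptors EGFR and FGFR1 to ELK and CREB1. None was called with CBX7 by edgeR, where 7.66% of all tested genes were called. Of the 26, 10 were at an unadjusted p under 0.05, and their median log2 fold change was 0.039. Of 30 further growth factor induced genes, 5 rose (16.7%) and 1 fell (3.33%), where 4.17% of all tested genes rose and 3.48% fell. The largest changes were in SGK1 (1.19), a kinase, RHOB (-1.11), a small GTPase, GADD45B (0.98), a stress sensor, and DUSP8 (0.91), a phosphatase of JNK and p38.

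**Figure D2:**
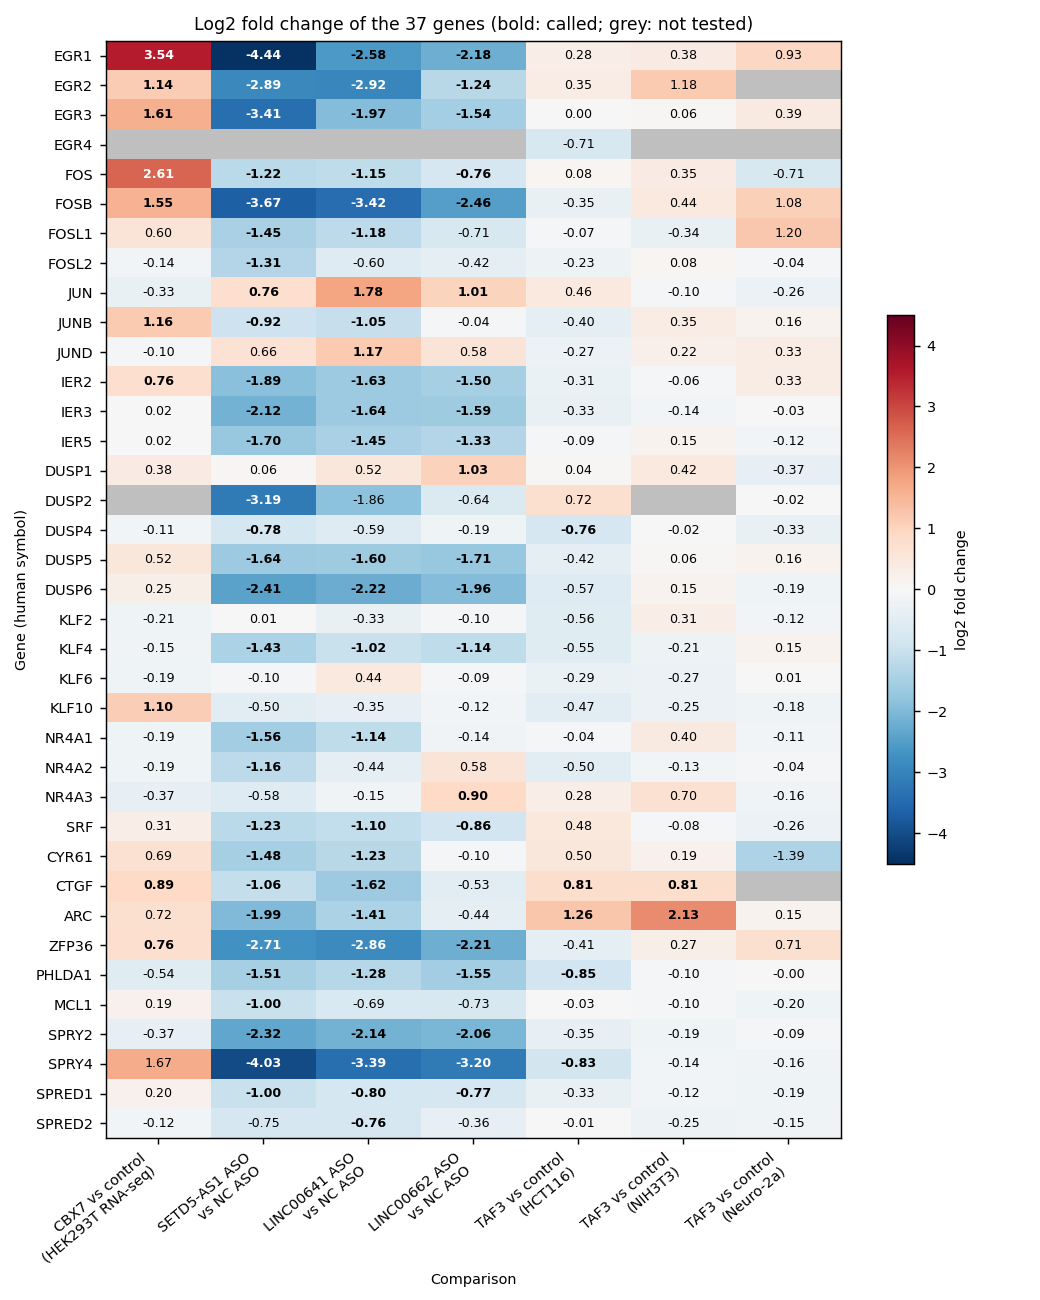
Log2 fold change (colour and printed value) of the 37 genes (rows) in 7 comparisons (columns); bold values were called and grey cells were not tested. The column of CBX7 is led by EGR1 at 3.54 and FOS at 2.61, and most values in the 3 ASO columns are below 0, with JUN above 0 in each.

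The ASO experiments ask what happens to HEK293T cells when a chromatin-associated noncoding RNA is depleted. SETD5-AS1 was at 4.73, 4.24 and 3.97 CPM with its ASO and at 52.9, 53.4 and 53.5 CPM with the NC ASO. LINC00641 was at 0.916 and 1.93 CPM with its ASO and at 43.1, 38.5 and 41.4 CPM with the NC ASO, and LINC00662 was at 1.97, 1.23 and 1.53 CPM against 12.5, 14.3 and 13.3 CPM. Each target was therefore low in its own group. The 3 comparisons with the NC ASO share the same 3 NC libraries, so that their likeness is not independent and their values are given side by side.

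Most of the genes were lower with each targeting ASO than with the NC ASO. With the SETD5-AS1 ASO, 28 of 36 tested genes fell (77.8%) and 1 rose, where of the 18544 tested genes 24.4% were called, 11.5% falling and 12.9% rising. With the LINC00641 ASO, 24 of 36 fell (66.7%) and 2 rose, where of 18503 genes 22.5% were called, 11.5% falling and 11% rising. With the LINC00662 ASO, 17 of 36 fell (47.2%) and 3 rose, where of 18562 genes 24.9% were called, 13.3% falling and 11.6% rising. The median log2 fold changes of the genes were -1.44, -1.16 and -0.72 in this order, while those of all tested genes were 0.028, 0.0042 and 0.0013. With library size alone in place of TMM factors, the share of rises among all calls for the SETD5-AS1 ASO went from 52.8% to 66.5% and the median of all genes shifted by 0.14, and 27 of the listed genes were called lower and 2 higher.

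EGR1 was at 45.1, 40.8 and 47.6 CPM with the NC ASO. It was at 2.32, 2.12 and 1.67 CPM with the SETD5-AS1 ASO, at 7.02 and 7.70 CPM with the LINC00641 ASO and at 11.5, 9.63 and 6.78 CPM with the LINC00662 ASO. No targeting library reached the NC values, and the SETD5-AS1 libraries lay below all others. EGR1 fell by 4.44 (SE 0.143), 2.58 (SE 0.128) and 2.18 (SE 0.129) on the log2 scale, with edgeR adjusted p = 6.46e-13, 8.65e-12 and 1.89e-13. EGR2 had log2 fold changes of -2.89, -2.92 and -1.24 and EGR3 of -3.41, -1.97 and -1.54, so that all 3 tested EGR genes fell with each ASO.

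Within AP-1, FOS and FOSB fell with each ASO. FOSL1 fell by 1.45 and 1.18 with the SETD5-AS1 and LINC00641 ASOs, and FOSL2 by 1.31 with the SETD5-AS1 ASO alone. With the LINC00662 ASO, FOSL1 was called lower only under 4 alternative settings. FOSB was at 40.8, 36.9 and 38.5 CPM with the NC ASO, at 3.32, 2.88 and 2.86 CPM with the SETD5-AS1 ASO, at 2.52 and 4.56 CPM with the LINC00641 ASO and at 8.95, 5.94 and 5.10 CPM with the LINC00662 ASO. It fell by 3.67, 3.42 and 2.46 on the log2 scale (SE 0.128, 0.171 and 0.139, edgeR adjusted p = 1.27e-12, 8.65e-12 and 7e-14), with the targeting groups all below the NC group. FOS went from 24.2 to 33.4 CPM with the NC ASO down to 12.4 to 13.2, 12.1 to 14.4 and 14.2 to 18.8 CPM, falls of 1.22, 1.15 and 0.76. The last of these did not hold without LINC00662 replicate 3, NC replicate 1 or NC replicate 3, or with library size alone, at log2 fold changes between -0.72 and -0.66 over the settings that lost the call.

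JUN (ENSG00000177606.5, hg19 chromosome 1, 59246465 to 59249785, minus strand) went the other way. It was at 244, 267 and 288 CPM with the NC ASO, at 470, 442 and 435 CPM with the SETD5-AS1 ASO, at 954 and 854 CPM with the LINC00641 ASO and at 496, 547 and 497 CPM with the LINC00662 ASO. Every targeting library was above every NC library. The log2 fold changes were 0.76 (SE 0.0799), 1.78 (SE 0.0848) and 1.01 (SE 0.0696), with edgeR adjusted p = 3.7e-07, 5.93e-12 and 2.95e-12. The first lay close to the fold threshold and was not called under DESeq2, with DESeq2 size factors, or without NC replicate 1, NC replicate 2 or SETD5-AS1 replicate 1, at 0.69 to 0.75. JUND, another JUN family subunit, had log2 fold changes of 0.66, 1.17 and 0.58, of which only that for LINC00641 was called in these fits. JUNB had -0.92, -1.05 and -0.04; its NC libraries were uneven at 20.2, 9.99 and 28.9 CPM, and both calls were lost without NC replicate 3, at -0.55 and -0.70, and under DESeq2.

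**Figure D3:**
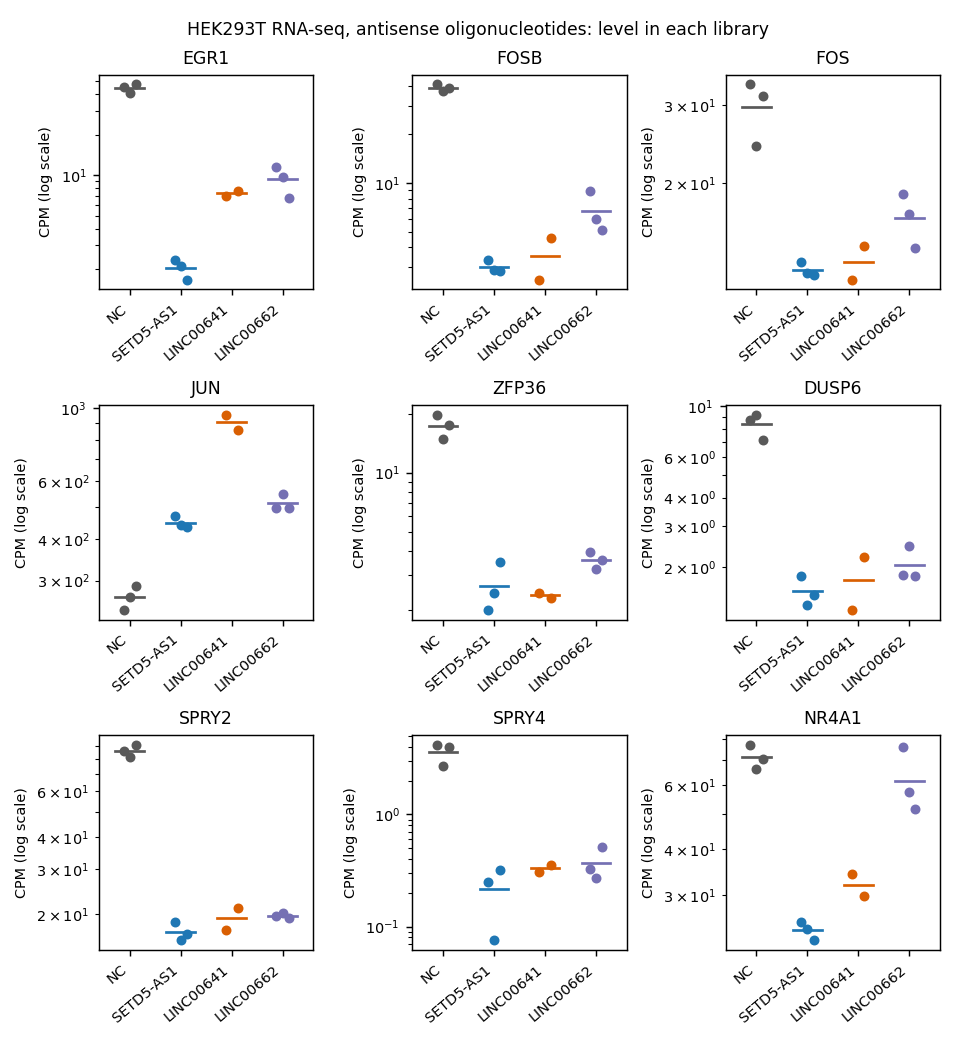
Level in CPM (vertical axis, log scale, a separate range for each gene) of 9 genes in each HEK293T library after the NC, SETD5-AS1, LINC00641 or LINC00662 ASO; points are libraries and horizontal lines are group means. EGR1, FOSB, ZFP36, DUSP6, SPRY2 and SPRY4 are highest in the 3 NC libraries, JUN is lowest there at 244 to 288 CPM, and NR4A1 is near the NC level in the LINC00662 group.

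The feedback inhibitors of the cascade were among the genes that fell. SPRY4 (ENSG00000187678.8, hg19 chromosome 5, 141689992 to 141706020, minus strand) was at 4.19, 2.69 and 3.95 CPM with the NC ASO and at no more than 0.510 CPM in any targeting library, and fell by 4.03, 3.39 and 3.20 (SE 0.441, 0.437 and 0.377, edgeR adjusted p = 5.78e-07, 2.04e-06 and 5.64e-08). SPRY2, which was better covered, was at 85.7, 81.8 and 90.9 CPM with the NC ASO and between 15.9 and 21.2 CPM in the 8 targeting libraries, falls of 2.32, 2.14 and 2.06. SPRED1, a membrane inhibitor of RAS signalling, fell by 1.00, 0.80 and 0.77. The calls for LINC00641 and LINC00662 were near the threshold and were lost with library size alone. They were also lost without LINC00641 replicate 2 for the LINC00641 ASO and without LINC00662 replicate 1 or 3 or NC replicate 1 for the LINC00662 ASO, at log2 fold changes between -0.74 and -0.63. SPRED2 had log2 fold changes of -0.75, -0.76 and -0.36, of which the second was called. That call was lost without LINC00641 replicate 2, NC replicate 1 or NC replicate 2, at values from -0.74 to -0.67, and with library size alone (-0.68). The first value was called by DESeq2 (-0.77) and without NC replicate 3 (-0.89) or SETD5-AS1 replicate 1 (-0.85).

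DUSP6 was at 8.76, 9.21 and 7.10 CPM with the NC ASO, at 1.83, 1.36 and 1.51 CPM with the SETD5-AS1 ASO, at 1.3 and 2.21 CPM with the LINC00641 ASO and at 1.84, 2.46 and 1.82 CPM with the LINC00662 ASO. It fell by 2.41, 2.22 and 1.96 (SE 0.220, 0.254 and 0.210, edgeR adjusted p = 6.63e-08, 4.31e-07 and 1.08e-08), and DUSP5, a nuclear phosphatase of ERK, fell by 1.64, 1.6 and 1.71. DUSP1, which acts on p38 and JNK as well as ERK, had log2 fold changes of 0.06, 0.52 and 1.03 and rose with the LINC00662 ASO, at 49.2, 53.4 and 43.5 CPM against 26.9, 25.9 and 22.4 CPM. Its promoter holds the cAMP response element shown above. TGACNTCA was also in the windows of JUN, which rose with each ASO, and of ZFP36, which fell with each. JUND, called higher only with the LINC00641 ASO, and KLF6, called with none, held it too. A link between the element and these changes was not tested. DUSP4 fell by 0.78 with the SETD5-AS1 ASO, a call lost without NC replicate 1 (-0.70), without SETD5-AS1 replicate 2 (-0.68) and with library size alone (-0.65). DUSP2 was also called there, from a mean of 3.67 counts per library, and it was not tested without NC replicate 3.

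All 3 IER genes fell with each ASO, with log2 fold changes of -1.89, -1.63 and -1.5 for IER2. ZFP36, the mRNA decay factor, was at 19.8, 14.8 and 17.5 CPM with the NC ASO and between 1.99 and 3.95 CPM in the targeting libraries, and fell by 2.71, 2.86 and 2.21. SRF fell by 1.23, 1.10 and 0.86, KLF4, a zinc finger factor, by 1.43, 1.02 and 1.14, and PHLDA1 by 1.51, 1.28 and 1.55. KLF2, KLF6 and KLF10 were called in none of these 3 edgeR fits, where their log2 fold changes ranged from -0.50 to 0.44.

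Among the NR4A receptors, which are nuclear receptors without a known classical ligand, NR4A1 was at 77.1, 66.0 and 70.7 CPM with the NC ASO, at 25.3, 24.3 and 22.6 CPM with the SETD5-AS1 ASO, at 34.2 and 29.8 CPM with the LINC00641 ASO and at 75.9, 57.4 and 51.5 CPM with the LINC00662 ASO. It was below the NC group without overlap for the first 2 targets (log2 fold changes -1.56 and -1.14, both called) and overlapped it for LINC00662 (-0.14, edgeR adjusted p = 0.254). CYR61 had -1.48 and -1.23, both called, and -0.10, CTGF -1.06 and -1.62, both called, and -0.53, and ARC -1.99 and -1.41, both called, and -0.44. NR4A3 had -0.58, -0.15 and 0.90, of which the last was called, and NR4A2 -1.16, -0.44 and 0.58, of which the first was called. MCL1, which encodes an anti-apoptotic protein, fell with the SETD5-AS1 ASO, to 123 to 138 CPM from 256 to 271 CPM, and had -0.69 and -0.73 with the others, not called. For the LINC00662 ASO it was called in a joint fit of the ASO groups (-0.79). It was also called there without LINC00662 replicate 1 (-0.75) or NC replicate 2 (-0.76).

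Of the 26 cascade genes, 3.85%, 15.4% and 23.1% were called with the SETD5-AS1, LINC00641 and LINC00662 ASOs. Over all tested genes the shares were 24.4%, 22.5% and 24.9%, so that the LINC00662 share was near that of all genes. With the SETD5-AS1 ASO 1 rose, EGFR (0.80). With the LINC00641 ASO 3 rose, SOS2 (1.01), FGFR1 (1.00) and EGFR (0.96), and SOS1, an exchange factor for RAS like SOS2, fell by 0.88. With the LINC00662 ASO 4 rose, among them FGFR1 (1.09) and SOS2 (0.91), and the kinase BRAF was among those that fell (-1.28). Their medians were 0.10, 0.13 and 0.20.

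The 30 further growth factor induced genes moved mostly down, with 16, 14 and 10 falling and 0, 1 and 2 rising. The falling shares were 53.3%, 46.7% and 33.3%, against 11.5%, 11.5% and 13.3% of all tested genes. The rising shares were 0%, 3.33% and 6.67%, against 12.9%, 11% and 11.6%. SGK1 was at 110 ± 1.95 CPM with the NC ASO (SD, n = 3) and fell by 4.47, 4.56 and 4.06. PLK2, a stress-induced kinase, fell by 2.84, 2.82 and 2.57. GADD45B and RND3, an atypical small GTPase, fell by 2.04 and 1.83 with the SETD5-AS1 ASO, GADD45B and ETV5, an ERK-induced ETS factor, by 2.01 and 1.84 with the LINC00641 ASO, and RND3 and ETV1 each by 1.70 with the LINC00662 ASO.

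The RNA-seq control group of the CBX7 experiment offers values from the same cell line, in a table that was normalized separately and without a shared library, so that no test was made. There EGR1 was at 2.41 to 8.34 CPM, FOSB at 1.83 to 3.55 CPM, SPRY2 at 22.0 to 25.4 CPM, SPRY4 at 0 to 0.388 CPM and JUN at 727 to 889 CPM. The NC ASO libraries stood apart from these at 40.8 to 47.6, 36.9 to 40.8, 81.8 to 90.9, 2.69 to 4.19 and 244 to 288 CPM, and for these 5 genes the targeting ASO libraries were nearer to the RNA-seq controls than the NC ASO libraries were. These 5 genes are examples, and no such count over the 37 genes or over all genes was made. The treatment, the table and the sequencing cannot be told apart in this comparison.

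Tests between targeting ASOs do not use the NC libraries. The LINC00662 libraries held more of the early response RNA than the SETD5-AS1 libraries, with 12 of 35 tested genes higher (34.3%) and none lower, where of the 18417 tested genes 11.1% were called, 2.5% higher and 8.57% lower. EGR1, at 11.5, 9.63 and 6.78 CPM against 2.32, 2.12 and 1.67 CPM, was higher by 2.20 (SE 0.231, edgeR adjusted p = 7.43e-07). EGR3, at 2.76, 2.19 and 2.33 CPM against 0.664, 0.454 and 0.953 CPM, was higher by 1.81 (SE 0.358, edgeR adjusted p = 0.000793). NR4A2, an orphan nuclear receptor, was at 29.9, 22.6 and 21.4 CPM against 7.47, 6.89 and 8.66 CPM and higher by 1.69 (SE 0.146, edgeR adjusted p = 5.49e-08). In all 3 genes the groups were separate.

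All 3 NR4A receptors were higher in that comparison, NR4A3 by 1.42 and NR4A1 by 1.36, as were ARC (1.49), whose product regulates synaptic receptor traffic, CYR61 (1.33) and FOSB (1.15). EGR2 was called at 1.59 but not without LINC00662 replicate 1 or SETD5-AS1 replicate 2 (1.29 and 1.41), and FOSL2 was not called without SETD5-AS1 replicate 3 (0.73). DUSP1 (0.91) and JUNB (0.82) were higher as well. Of the genes given in every comparison, all but EGR1 were not called here. SPRY4 had a log2 fold change of 0.77 with a standard error of 0.704 (edgeR adjusted p = 0.432), DUSP6 0.39 with 0.304 (adjusted p = 0.358), FOS 0.40 with 0.126 (adjusted p = 0.0208) and JUN 0.20 with 0.0668 (adjusted p = 0.0312), the last 2 under the fold threshold.

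Against the LINC00641 ASO, the LINC00662 libraries had 9 of 36 tested genes higher (25%) and 1 lower, where of the 18363 tested genes 8.41% were called, 2.25% higher and 6.15% lower. CYR61, at 58.0, 60.9 and 58.0 CPM against 26.3 and 29.2 CPM, was higher by 1.09 (SE 0.0891, edgeR adjusted p = 1.53e-08). CTGF, at 9.93, 9.84 and 9.84 CPM against 4.43 and 5.14 CPM, was higher by 1.04 (SE 0.175, edgeR adjusted p = 0.000178), and NR4A3, at 19.9, 15.9 and 15.8 CPM against 7.63 and 9.56 CPM, by 1.00 (SE 0.155, edgeR adjusted p = 7.55e-05). These groups too were separate. NR4A2 was higher by 0.97, JUNB by 0.96, NR4A1 by 0.95, ARC by 0.92 and FOSB by 0.91.

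EGR1, at 11.5, 9.63 and 6.78 CPM against 7.02 and 7.70 CPM, overlapped between the LINC00662 and LINC00641 groups, with a log2 fold change of 0.34 (SE 0.199, edgeR adjusted p = 0.233). JUN was lower by 0.82 on the log2 scale in the LINC00662 group, at -0.73 and not called without LINC00641 replicate 2. With LINC00662 replicate 1 left out ARC, EGR2 and FOSB were not called, ARC at no more than 0.70, and with LINC00641 replicate 2 left out EGR2 and FOSB were not called. EGR2 was also lost without LINC00641 replicate 3. Over these left-out libraries EGR2 stood between 1.34 and 1.77 and FOSB between 0.55 and 0.63. FOS, DUSP6 and SPRY4 had log2 fold changes of 0.34, 0.21 and 0.15, with edgeR adjusted p = 0.0992, 0.711 and 0.91.

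Between the SETD5-AS1 and LINC00641 ASOs, 2 of 35 tested genes were lower with SETD5-AS1 (5.71%) and none was higher, where of the 18337 tested genes 1.72% were called, 0.682% lower and 1.04% higher. EGR1, at 2.32, 2.12 and 1.67 CPM against 7.02 and 7.70 CPM, was lower by 1.85 on the log2 scale (log2 fold change -1.85, SE 0.232, edgeR adjusted p = 0.000208). JUN, at 470, 442 and 435 CPM against 954 and 854 CPM, had a log2 fold change of -1.01 (SE 0.0827, edgeR adjusted p = 4.79e-06). FOS (-0.06), DUSP6 (-0.17) and SPRY4 (-0.62) were not called, with edgeR adjusted p = 0.858, 0.85 and 0.721. With library size alone the share of rises among all calls went from 60.4% to 71.8%. Without SETD5-AS1 replicate 3, 4 genes were called.

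With LINC00662 against SETD5-AS1, 3 of the 26 cascade genes were lower and none higher (11.5% called, against 11.1% of all tested genes). BRAF (-1.07) and RPS6KA2 (-0.89), an ERK-activated kinase, were among them. Against LINC00641, 2 were lower and none higher (7.69% called, against 8.41%), BRAF (-0.97) among them. Both shares were near those of all tested genes. Between SETD5-AS1 and LINC00641 none was called by edgeR, with 7 at an unadjusted p under 0.05, where 1.72% of all tested genes were called. Of the 30 further induced genes, CSRNP1 (1.33), ATF3 (1.02), MAFF (0.96) and SPRED3 (0.86) were higher with LINC00662 than with SETD5-AS1 and none was lower. That share of 13.3% called was near the 11.1% of all tested genes, of which 2.5% were higher. CSRNP1 (0.77) alone was higher with LINC00662 than with LINC00641 (3.33% called, against 8.41%, with 2.25% higher). With SETD5-AS1, MAFF (-0.98), TRIB1 (-0.92), ATF3 (-0.92) and DUSP8 (-0.80) were lower than with LINC00641 (13.3% called, against 1.72%, with 0.682% lower).

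The TAF3 comparisons look for RNA labelled more, or less, when APEX2 is brought to H3K4me3 than when it has no reader. The 35 libraries held no RNA-seq of these lines, so changed labelling and a changed RNA level cannot be told apart. Enriched and depleted therefore name only the direction of a difference in the pulled-down RNA. Of the 37 genes, all tested in HCT116, 2 were enriched (5.41%) and 3 depleted (8.11%); over 18731 genes 6.62% were called, 3.34% as enriched and 3.28% as depleted. ARC was at 18.4, 18.9 and 18.2 CPM with TAF3 and at 9.65, 7.10 and 6.43 CPM in the control. The tight TAF3 values all lay above the control, with a log2 fold change of 1.26 (SE 0.128, edgeR adjusted p = 9.29e-11). CTGF was enriched by 0.81, from 6.15 to 6.32 CPM in the control to 9.23 to 12.6 CPM, but was not called without TAF3 replicate 2 (0.69).

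PHLDA1, a pleckstrin homology protein induced by growth factors, was at 383, 377 and 394 CPM with TAF3 and at 678, 735 and 666 CPM in the control, and changed by -0.85 (SE 0.0521, edgeR adjusted p = 8.41e-17). SPRY4, at 75.9, 75.3 and 72.3 CPM with TAF3 and at 135, 136 and 127 CPM in the control, had -0.83 (SE 0.0611, edgeR adjusted p = 8.4e-15). DUSP4, a nuclear phosphatase, had -0.76 and was not called without control replicate 2 (-0.73). The groups were separate in each of these depleted genes, which include 1 phosphatase and 1 SPRY gene.

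The transcription factors stayed under the fold threshold in HCT116 cells. EGR1 was at 193, 193 and 192 CPM with TAF3 against 171, 146 and 158 CPM (log2 fold change 0.28, SE 0.0584, edgeR adjusted p = 0.000129), and JUN was at 216, 234 and 220 CPM against 167, 162 and 161 CPM (0.46, SE 0.0556, edgeR adjusted p = 7.66e-09). FOS had 0.08 (adjusted p = 0.551) and DUSP6 -0.57 (adjusted p = 8.87e-09). Over the 37 genes the median was -0.27, with 25 below 0, against -0.0067 over all tested genes.

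NIH3T3 showed enrichment of 2 of the 35 tested genes (5.71%) and no depletion, where 11.1% of 19220 genes were called, 10.7% as enriched and 0.375% as depleted. Arc (ENSMUSG00000022602.14, mm10 chromosome 15, 74669083 to 74672570, minus strand) was at 9.03, 5.37 and 4.95 CPM with TAF3 and at 1.97, 1.15 and 1.26 CPM in the control, without overlap, and its log2 fold change was 2.13 (SE 0.314, edgeR adjusted p = 1.31e-05). Ccn2, the mouse CTGF gene (mm10 chromosome 10, 24595442 to 24598683), was at 51.5, 51.6 and 57.4 CPM against 31.9, 32.5 and 27.3 CPM, a log2 fold change of 0.81 (SE 0.0938, edgeR adjusted p = 3.38e-07); it was not called without control replicate 3 (0.74). Egr1, at 266, 265 and 256 CPM against 185, 207 and 213 CPM, had 0.38 (SE 0.0592, edgeR adjusted p = 2.65e-05).

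Fos had a log2 fold change of 0.35 (edgeR adjusted p = 0.265) in NIH3T3, Jun -0.10 (adjusted p = 0.2), Dusp6 0.15 (adjusted p = 0.226) and Spry4 -0.14 (adjusted p = 0.508). The median over the 35 genes was 0.062 against 0.020 over all tested genes. Egr4 and Dusp2 were not tested, with at most 1 library above 0 each.

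The Neuro-2a TAF3 libraries were uneven, over all genes as well as these. Chi-square per gene between their replicates was 32.8, 37.4 and 3.24. Without TAF3 replicate 1, edgeR called 620 of all tested genes in place of 176. Of 36 listed genes with any count, 19 had their highest level in TAF3 replicate 1. No other library held the highest level of more than 6. That count was not made over all genes. Fosb was at 7.91, 1.91 and 1.44 CPM with TAF3 and at 2.22, 1.54 and 1.46 CPM in the control, and Ier2 at 40.8, 20.5 and 17.0 CPM against 22.9, 19.6 and 19.4 CPM. For Fosb and Ier2, replicate 1 was thus high while the others were near the control level. None of the 34 tested genes was called by edgeR, 3 had an unadjusted p under 0.05, and DESeq2 called 1, where edgeR called 1.03% of 17006 genes, 1.01% as enriched and 0.0235% as depleted.

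Egr1 was at 41.2, 22.8 and 21.4 CPM with TAF3 in Neuro-2a and at 15.9, 11.9 and 17.0 CPM in the control. All TAF3 values lay above the control, with a log2 fold change of 0.93 (SE 0.259, edgeR adjusted p = 0.125), and this was the gene DESeq2 called; without TAF3 replicate 1 it was 0.56 (SE 0.153, edgeR adjusted p = 0.00858), under the fold threshold. Jun was at 78.4, 49.6 and 46.3 CPM against 72.2, 66.3 and 70.1 CPM (log2 fold change -0.26, adjusted p = 0.523), and -0.53 without that library. Fos had -0.71 (adjusted p = 0.232), Dusp6 -0.19 (adjusted p = 0.529) and Spry4 -0.16 (adjusted p = 0.692).

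**Figure D4:**
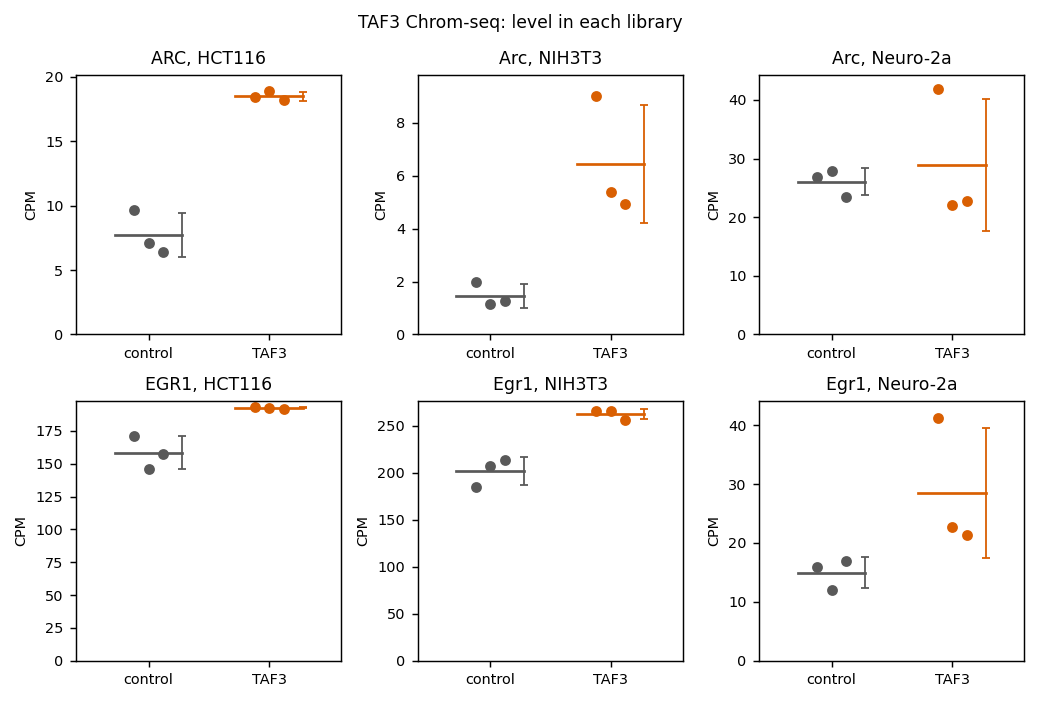
Level in CPM (vertical axes, from 0, a separate range for each panel) of ARC (top) and EGR1 (bottom) in each Chrom-seq library of HCT116, NIH3T3 and Neuro-2a cells with the reader-free control or TAF3; points are libraries, horizontal lines the mean and vertical bars the SD of 3 libraries. ARC is higher in all TAF3 libraries of HCT116 and NIH3T3, and in Neuro-2a it is high in 1 TAF3 library, at 41.9 CPM, with the others at 22.1 and 22.7 CPM.

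An interaction term over 12 libraries compared the TAF3 effect of both mouse lines. It called 1 of 36 tested genes (2.78%), Arc, and 3.05% of 19509 genes, 0.718% as higher and 2.33% as lower in Neuro-2a. Arc was at 41.9, 22.1 and 22.7 CPM with TAF3 in Neuro-2a and at 26.8, 27.9 and 23.5 CPM in the control, giving 0.15 on the log2 scale there against 2.13 in NIH3T3, and the difference was -1.99 (SE 0.406, edgeR adjusted p = 0.00828). Without Neuro-2a TAF3 replicate 1 the difference in Arc was -2.34, and Ccn1 (-2.37) and Nr4a1 (-0.78) were also called. Egr1 (0.53), Fos (-1.07), Jun (-0.18), Dusp6 (-0.34) and Spry4 (-0.04) were not called, with edgeR adjusted p = 0.362, 0.127, 0.755, 0.335 and 1.

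Among the other lists, none of the 26 cascade genes was called with TAF3 in HCT116 or Neuro-2a by edgeR, with 16 and 3 at an unadjusted p under 0.05. Over all tested genes 6.62% and 1.03% were called. In NIH3T3 only Rps6ka1, an ERK-activated kinase, was called, from 8, 3 and 10 counts with TAF3 and 0 in each control library. That was 3.85%, against 11.1% of all tested genes. Of the 30 further induced genes, SGK1 was enriched in HCT116 (0.79) and ID1 (-1.03), GADD45A (-0.90) and BHLHE40 (-0.84) were depleted. That was 3.33% enriched and 10% depleted, against 3.34% and 3.28% of all tested genes. Btg2 was enriched in NIH3T3 (0.84), 3.45% of 29 tested, against 11.1% of all tested genes called. In Neuro-2a none was called, with 3 at an unadjusted p under 0.05, where 1.03% of all tested genes were called.

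Several of the genes overlap others on the opposite strand, and since no strand setting is stated for the counting, their reads cannot be told apart. AC005592.2, antisense to SPRY4, was depleted with SPRY4 in HCT116 (-0.94) at 19.96 ± 1.37 CPM against 38.3 ± 2.35 CPM (SD, n = 3 each), and in the ASO table was at a mean of at most 0.407 CPM in any group. CTC-250I14.6, antisense to IER2, moved with it at low levels, by 2.03 with CBX7 and by -2.39, -1.13 and -2.05 with the SETD5-AS1, LINC00641 and LINC00662 ASOs. ERCC1, which overlaps FOSB, had log2 fold changes of -0.51, -0.55 and -0.72 in the ASO comparisons and 0.21 with CBX7, under the fold threshold in each.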

How the data were processed

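RNA-seq and Chrom-seq read counts per gene were used as deposited. Per the labels and the study's methods, the authors trimmed reads with fastp 0.23.1, aligned them with HISAT2 2.1.0 to hg19 or mm10 and counted them with featureCounts 2.0.1 without normalization; libraries followed a Smart-seq protocol. Gene lengths in the tables are genomic spans, so that intronic reads may have entered. For each contrast, edgeR 4.0.16 (R 4.3.3) fitted a quasi-likelihood model to the libraries of its groups, with TMM normalization, on genes with a summed count over 3 per library, and Benjamini-Hochberg adjustment over all tested genes. Standard errors were the fold change over the square root of F. CPM used TMM factors over a whole table.

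The genes and lists were chosen with earlier results of these data known. EGR1, FOS, JUN, DUSP6 and SPRY4 were given in every comparison, with every called gene where at most 8 were called and otherwise the 8 largest changes with a mean of at least 20 counts per library; other genes were named after their values were seen, and 1 gene of the cascade list is not reported here. Replicates are separate samples in the labels, which do not say whether they are separate cultures, so p-values measure only the spread between these samples. Of 34 pairs of replicates 0 were identical, and chi-square per gene ran from 2.41 to 37.4, the latter between Neuro-2a TAF3 libraries. Alternatives were DESeq2 1.42.0, its size factors, library size alone, no filter, a replicate block, a joint fit of the ASO groups and each library left out. The procedure was tested on simulated data. The HEK293T Chrom-seq table, with 12 libraries, stacks blocks of different columns and was not used here. Counting error is not the only error, since PCR reads are not independent molecules.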

Additional observations from a re-analysis of the deposited data

Results flagged for a closer look

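Arc had a different TAF3 effect in the 2 mouse lines, by -1.99 on the log2 scale as Neuro-2a minus NIH3T3 (SE 0.406, edgeR adjusted p = 0.00828, interaction test over 12 libraries). It was called under every alternative run. Its enrichment in NIH3T3 rests on levels of 4.95 to 9.03 CPM against 1.15 to 1.97 CPM. The groups of 3 or fewer libraries were too small for a search for single outlying values.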

How the results depend on the processing

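No called gene changed direction under any alternative. Of 1353 values of called genes under alternatives, 61 were no longer called and 2 of the untested EGR1 value under CBX7 moved by more than its error. Leaving out each library gave 4 to 6 called genes for TAF3 in HCT116, 1 to 2 in NIH3T3, 0 to 0 in Neuro-2a, 6 to 10 for CBX7, 27 to 29, 24 to 26 and 18 to 22 for the SETD5-AS1, LINC00641 and LINC00662 ASOs against NC, 11 to 13 for LINC00662 against SETD5-AS1, 7 to 10 for LINC00662 against LINC00641, 2 to 4 for SETD5-AS1 against LINC00641 and 1 to 3 for the interaction. DESeq2 and no filter each gave 1 in Neuro-2a, Egr1; for the interaction DESeq2 gave 3 and no filter 2. The cause was not tested. Of the left-out libraries, CBX7 replicate 1 (6 called), SETD5-AS1 replicate 3 (4 against LINC00641), NIH3T3 control replicate 3 (1) and Neuro-2a TAF3 replicate 1 (3 in the interaction) moved a count by over 1.5 times. The remaining alternatives kept each count within that range. All CBX7 counts given here include EGR1, whose rise was known when the genes were chosen. With 2 LINC00641 libraries, leaving out 1 leaves a lone library that is assumed to vary like the other group. Deviations of same-numbered libraries correlated at -0.042 to 0.095, so that the numbers mark no pairing. The replicate block gave 5, 2, 0, 9, 29, 25, 20, 12, 7, 2 and 1 called genes in the order above; between LINC00662 and LINC00641 it lost ARC (0.69), EGR2 (1.31) and FOSB (0.66), and it also lost SPRED2 for the LINC00641 ASO (-0.65) and ZFP36 for CBX7 (0.73). The 3 planned comparisons with the HEK293T Chrom-seq table were not run. Genes under about 5 CPM, such as SPRY4 and EGR3 in HEK293T, rest on few counts.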

Other observations

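Junos, which overlaps mouse Jun on the opposite strand, was at 190 ± 7.58 CPM with TAF3 and 175 ± 8.44 CPM in the control of NIH3T3, and at 5.85 ± 0.898 and 3.15 ± 0.713 CPM in Neuro-2a (SD, n = 3 each); the difference in effect was 0.76 on the log2 scale (edgeR adjusted p = 0.0383). LINC00641, an ASO target, rose with the CBX7 reader by 1.05 on the log2 scale (SE 0.115, edgeR adjusted p = 1.28e-05), at 71.5, 53.4 and 56.3 CPM against 29.7, 25.6 and 32.0 CPM, in the same libraries in which EGR1 and FOS were high. SETD5-AS1 was lower with the LINC00641 and LINC00662 ASOs than with the NC ASO, by -0.82 and -0.83 on the log2 scale (edgeR adjusted p = 5.14e-07 and 2.55e-09), comparisons that share the NC libraries.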
